A study of Homo sapiens with 3 samples.

Results

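The collagen chains, laminin chains and integrin subunits of H82R cells were taken as the 82 genes whose symbols name a collagen alpha chain (COL, 44 genes), a laminin alpha, beta or gamma chain (LAM, 12 genes) or an integrin alpha or beta subunit (ITG, 26 genes), out of 27574 genes with read counts. H82 is a widely used human line of small cell lung cancer, and H82R is what the series title calls the cells sequenced. All 3 libraries, named here replicates 1, 2 and 3, carry the same labels: the H82 line, lung as tissue, and etoposide plus cisplatin as treatment, in a label that speaks of a tumor although the growth protocol describes culture in RPMI1640 with serum. No drug-free or parental library is among them. The values are therefore levels in these cells and how far 3 libraries differ, with no drug effect to read, and separate cultures are not stated.

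Collagens are proteins of 3 coiled chains that form fibrils, the meshwork of basement membranes, or films around other fibrils. Laminins are cross-shaped proteins of an alpha, a beta and a gamma chain that start the assembly of basement membranes, and agrin, perlecan and nidogens tie them to the type IV collagen network. Integrins are surface receptors of an alpha and a beta subunit that bind these proteins outside the cell and link them to actin inside through talin, kindlin and the kinase encoded by PTK2. In small cell lung cancer, adhesion to laminin and other matrix proteins through beta1 integrins has been studied as a route to survival under chemotherapy, and H82 grows mostly in suspension.

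The libraries held 25013265, 42610181 and 23868201 counts in replicates 1, 2 and 3. Genes that reached 10 counts in all 3 libraries are called detected, and there were 14612. Levels are given as CPM, the counts scaled to a common library size, divided by the length of the gene's exons in kb, so that genes of different length can be compared, and the median detected gene stood at 5.56, 5.48 and 5.59 CPM per kb. Of 8 small cell neuroendocrine markers 8 were detected and 6 lay above the median detected gene, with a summed level of 1333 to 1345 CPM per library. The 8 fibroblast markers summed to 16.9 to 21.5 CPM with 3 detected, the 6 endothelial markers to 1.53 to 2.13 CPM with 2 detected, the 6 leukocyte markers to 30.8 to 40.6 CPM with 3 detected, the 6 platelet and erythroid markers to 2.82 to 5.52 CPM with 1 detected, and the 6 epithelial markers to 27.9 to 38.6 CPM with 2 detected. Among genes of these other types, DCN had 0, 1 and 0 counts, CDH5 had 0, 1 and 0, PTPRC had 6, 10 and 7, and GP9 and KRT5 had none in any library. Others in the same lists were detected, with 618, 1051 and 439 counts for CD68 (above the median gene), 637, 1472 and 658 for KRT8, 136, 424 and 179 for CD3E, 201, 279 and 193 for THY1 and 70, 233 and 106 for GP1BA. The part of other cell types in the results was not tested. In bulk RNA, fewer cells of a type and less RNA per cell cannot be told apart.

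The laminin genes LAMB1 and LAMC1, the integrin genes ITGA6 and ITGB1 and the collagen gene COL11A1 had the highest levels of the members, while the main collagens of connective tissue and of basement membranes were nearly or wholly without reads. Of the 82 genes 50 were detected, against 53.0% of all genes in the table. That share is not of like genes, because 7514 of the 27574 names matched no annotated gene while all 82 members matched. Among the names that matched, 19590 directly and 470 through an older symbol, 13517 were detected. By family these were 11 of 12 laminin chains, 15 of 26 integrin subunits and 24 of 44 collagen chains. The remaining 32 genes held at most 36 counts in any library, and COL4A1, COL6A5 and ITGAM held no count in any of the 3, where 3 counts correspond to 0.121, 0.0702 and 0.125 CPM in replicates 1, 2 and 3. Together the 82 genes took 0.162%, 0.180% and 0.163% of all counts. Laminins took 0.0837%, 0.0902% and 0.0793%, integrins 0.0518%, 0.0575% and 0.0560%, and collagens 0.0266%, 0.0327% and 0.0282%.

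Of the 50 detected members, 8 lay above the median detected gene, 40 below it and 2 were not distinguished from it in limma's one-sample moderated test (adjusted p threshold 0.05). Over all 13517 genes tested, 45.3% lay above, 45.1% below and 9.60% were not distinguished. The median distance of the detected members from the median gene was -3.03 on the log2 scale of CPM per kb, with 0.00 for all detected genes. It was -1.16 for the 15 integrin subunits, -1.94 for the 11 laminin chains and -3.61 for the 24 collagen chains.

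**Figure D1:**
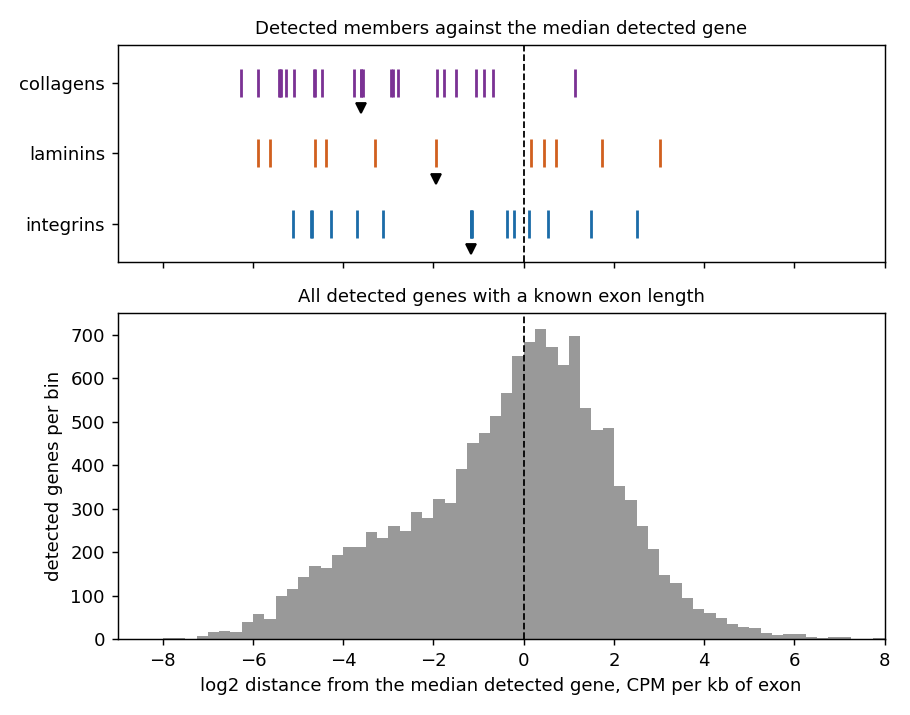
Log2 distance of each gene from the median detected gene of the same library, averaged over the 3 libraries, in CPM per kb of exon. The upper panel has 1 tick for each detected collagen, laminin and integrin gene with a triangle at the family median (-3.61, -1.94 and -1.16), and the lower panel has all 13517 detected genes with a known exon length in bins of 0.25. The 8 genes called above the median are spread over all 3 families, with 1 collagen, 4 laminins and 3 integrins.

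Among the laminins, LAMB1 had 46.4, 47.7 and 40.6 CPM per kb in replicates 1, 2 and 3, and LAMC1 had 19.5, 18.6 and 17.6. LAMB1 encodes the beta1 chain, which several laminins share, and LAMC1 the gamma1 chain, which most laminins share. All 3 libraries of LAMB1 lay above all 3 of LAMC1, and LAMB1 was the highest of the 82 genes, at 44.9 ± 3.81 CPM per kb (SD, n = 3) and above 94.7% of detected genes. It lay 3.01 ± 0.08 (SE) above the median gene on the log2 scale (limma, adjusted p = 6.2e-09), and LAMC1 1.74 ± 0.07 above it (adjusted p = 6.2e-08). Their ratio per kb was 2.38, 2.56 and 2.30, each with a 95% exact binomial interval that excludes 1. The 250 bases before the start sites of LAMB1 and LAMC1 are shown because these were the laminin genes with the highest levels. They lie at chr7:108003162-108003411 on the minus strand and chr1:183023170-183023419 on the plus strand (RefSeq, GRCh38.p14). Capitals here and below mark the GC box (GGGCGG, searched on both strands), the CCAAT box (the letters of its name, on both strands) and the TATA box (TATAAA, on both strands).
LAMB1: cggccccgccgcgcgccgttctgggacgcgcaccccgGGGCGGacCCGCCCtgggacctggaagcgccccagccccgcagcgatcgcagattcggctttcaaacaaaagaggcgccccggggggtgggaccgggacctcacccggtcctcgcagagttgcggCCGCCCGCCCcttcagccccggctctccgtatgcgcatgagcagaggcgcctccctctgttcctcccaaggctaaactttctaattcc
LAMC1: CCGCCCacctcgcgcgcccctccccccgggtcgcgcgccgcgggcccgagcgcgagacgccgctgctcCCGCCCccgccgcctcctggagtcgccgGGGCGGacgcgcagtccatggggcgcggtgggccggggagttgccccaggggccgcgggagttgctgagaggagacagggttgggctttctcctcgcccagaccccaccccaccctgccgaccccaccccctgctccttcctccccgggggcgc

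LAMB1 held 4 GC boxes and LAMC1 held 3, and neither window held a CCAAT or TATA box. Of all 35116 promoter windows of this length in the RefSeq table, 42.6% held a GC box, 32.0% a CCAAT box and 10.7% a TATA box. Promoter windows were found for 58 of the 82 genes. A GC box was present in 28 of 53 windows of detected members and in 13 of 24 windows of members that were not detected. A CCAAT box was present in 10 of 53 and 7 of 24 of these windows, and a TATA box in 3 of 53 and 7 of 24, all untested.

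The laminin alpha chains, which carry the sites that cell surface receptors bind, separated into a high and a low set. LAMA1, the alpha1 chain of embryonic basement membranes, had 9.28, 9.08 and 8.90 CPM per kb, and LAMA5, the alpha5 chain found in most adult epithelial basement membranes, had 6.28, 9.13 and 7.63. Both lay above the median gene, LAMA1 by 0.71 ± 0.07 (SE) and LAMA5 by 0.45 ± 0.11 on the log2 scale (limma, adjusted p = 1.0e-05 and 0.0036), though LAMA5 was not called when genes needed at least 1 CPM in every library (adjusted p = 0.0565). With the union of exons as length, LAMA1 was 1.48, 0.995 and 1.17 times LAMA5. On this length the order of the 2 chains was not the same beyond counting error in every library. The geometric mean ratio was 1.20, and 1.46 with the longest transcript as length. LAMA3, LAMA4 and LAMA2 were far lower, with 0.532 to 0.586, 0.187 to 0.240 and 0.0806 to 0.124 CPM per kb, and LAMA5 exceeded LAMA4, the chain of blood vessel and muscle laminins, by 26.2, 39.3 and 40.7 times.

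Of the other beta chains, LAMB2 had 5.54, 8.10 and 5.33 CPM per kb, with replicate 2 above the other libraries, and could not be separated from the median gene (limma, adjusted p = 0.256). It stood at 0.119, 0.170 and 0.131 times LAMB1. LAMB3, a chain of the epidermal anchoring laminin, had 0.205 to 0.312 CPM per kb, and LAMB4 had 15, 19 and 18 counts and the lowest mean level of the detected laminins, though in replicate 3 it lay above LAMA2. Among the gamma chains LAMC3 had 1.53, 1.42 and 1.36 CPM per kb. LAMB4 lies beside LAMB1 on chromosome 7, 20293 bases apart, so that the detected laminin genes with the highest and the lowest mean level are neighbours.

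**Figure D2:**
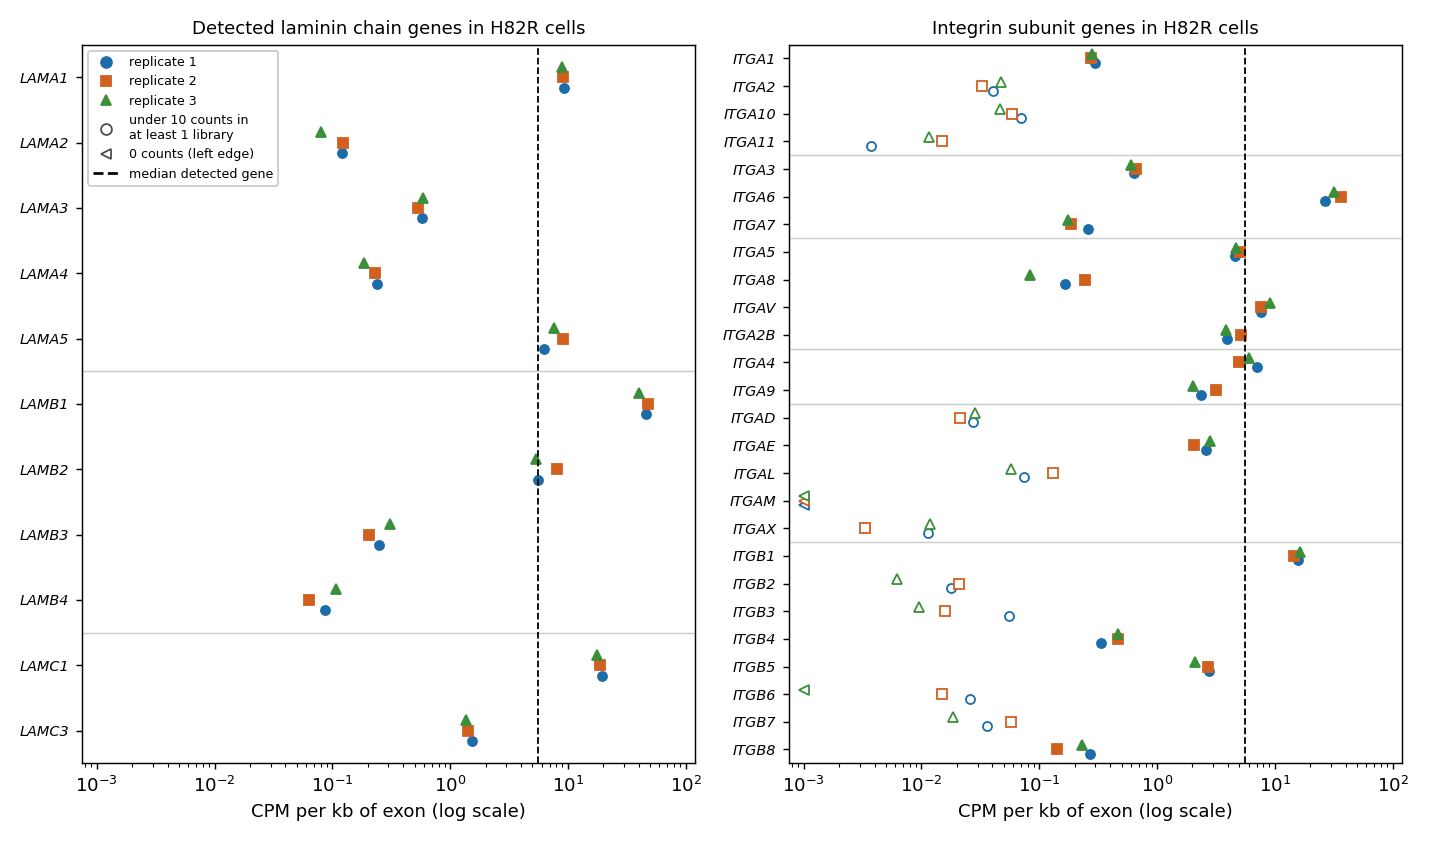
Level of the 11 detected laminin chain genes (left) and of each integrin subunit gene (right) in CPM per kb of exon on a log scale, 1 marker for each of the 3 libraries, with grey lines between role classes and a dashed line at the median detected gene. Filled markers are detected genes, and open markers have fewer than 10 counts in at least 1 library. LAMB1, LAMC1, ITGA6 and ITGB1 lie above the dashed line in every library, and ITGAM has 0 counts in all 3.

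Among the integrin alpha subunits, the laminin receptor gene ITGA6 was the highest, with 26.7, 36.3 and 32.1 CPM per kb. Replicate 1 was the lowest of the 3, and all lay far above the other laminin-binding subunits, ITGA3 (0.641, 0.664 and 0.596) and ITGA7 (0.259, 0.187 and 0.177). ITGA6 lay 2.50 ± 0.09 (SE) above the median gene on the log2 scale (limma, adjusted p = 4.8e-08), and ITGA3 was 0.0240, 0.0183 and 0.0186 times ITGA6. ITGA6 has annotated antisense neighbours over 5.37% of its exon bases. Whether counting used strand is not stated, so reads from a gene and from its antisense neighbour cannot be told apart. This also holds for LAMA1 (11.1%), ITGAE (7.59%) and ITGA9 (6.46%). Among genes not detected it holds for ITGB7 (42.1%), COL18A1 (16.4%) and ITGAL (9.56%).

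Of the RGD-binding subunits, receptors for fibronectin, vitronectin and fibrinogen, ITGAV, ITGA5 and ITGA2B lay around the median gene and ITGA8 far below it. ITGAV, which pairs with several beta subunits, had 7.62, 7.68 and 9.05 CPM per kb and lay 0.54 ± 0.08 (SE) above it (limma, adjusted p = 2.1e-04). The fibronectin receptor gene ITGA5 had 4.59, 5.05 and 4.70, and the platelet subunit gene ITGA2B had 3.94, 5.16 and 3.89. Both were called below the median gene, ITGA5 by 0.22 ± 0.08 (limma, log2 distance -0.22, adjusted p = 0.0362) and ITGA2B by 0.37 ± 0.11 (log2 distance -0.37, adjusted p = 0.0143), and both calls were lost without replicate 1, without replicate 3 and with the longest transcript as length, with the adjusted p at most 0.429 for ITGA5 and 0.472 for ITGA2B. The direction also turned: ITGA5 was called above the median gene on CPM not divided by length (log2 distance 0.32). ITGA5 (0.71) and ITGA2B (0.56) were both called above it when genes with at least 1 count in any library were used. ITGA8 was low, with 0.0831 to 0.246 CPM per kb. ITGA4, the receptor subunit for VCAM1 and fibronectin, had 7.05, 5.01 and 6.03 CPM per kb and could not be separated from the median gene (limma, adjusted p = 0.344), though it was called above it without replicate 2 (adjusted p = 0.0269). ITGA5 was 0.650, 1.01 and 0.779 times ITGA4. ITGA9, the closest relative of ITGA4, had 2.38, 3.15 and 2.04.

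The collagen-binding subunits were low or undetected. ITGA1 had 0.297, 0.273 and 0.279 CPM per kb, and ITGA2, ITGA10 and ITGA11 each had 1 to 16 counts per library. Of the 5 leukocyte subunits ITGAE was detected, with 2.58, 2.08 and 2.80 CPM per kb, while ITGAL had 12, 36 and 9 counts and ITGAD, ITGAX and ITGAM had at most 4. The genes of the last 3 lie side by side on chromosome 16. ITGB2, the beta subunit of the leukocyte integrins, had 3, 6 and 1 counts.

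ITGB1, the common partner of most alpha subunits, was the highest beta subunit, with 15.7, 14.4 and 16.4 CPM per kb, and lay 1.48 ± 0.07 (SE) above the median gene (limma, adjusted p = 1.7e-07). ITGA6 exceeded it in every library, by 1.70, 2.51 and 1.96 times, and ITGAV was 0.485, 0.532 and 0.552 times ITGB1. ITGB5, a vitronectin receptor subunit, had 2.77, 2.73 and 2.12 CPM per kb, ITGB4, the subunit that anchors hemidesmosomes, had 0.333, 0.467 and 0.463, and ITGB8, a receptor subunit that activates latent TGF-beta, had 0.268, 0.142 and 0.229. ITGB4 was 0.0125, 0.0129 and 0.0144 times ITGA6, its obligate partner. ITGB3, ITGB6, ITGB7 and ITGB2 were not detected. ITGB3 had 6, 3 and 1 counts, and 51.6% of its exon bases are shared with another annotated gene on the same strand. For ITGB6 this share is 20.6%.

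The highest collagen was COL11A1, which encodes the alpha1 chain of type XI, a minor component that sets the diameter of cartilage fibrils. It had 10.7, 15.0 and 11.3 CPM per kb, highest in replicate 2, and was the 1 collagen above the median gene, by 1.13 ± 0.10 (SE) on the log2 scale (limma, adjusted p = 1.0e-05). It held 36.5%, 41.9% and 36.5% of all collagen counts. Its partner chains in type XI were much lower, with 0.161, 0.163 and 0.0681 CPM per kb for COL11A2 and 0.224, 0.225 and 0.200 for COL2A1. The chains of the abundant fibrils of connective tissue had few reads: COL1A1 had 25, 27 and 10 counts, COL1A2 had 1, 3 and 0, and COL3A1 had 3, 6 and 1. COL5A2, a regulator of fibril assembly, had 1.39, 1.68 and 1.35 CPM per kb and exceeded its partner COL5A1 in every library, with COL5A1 at 0.0803, 0.0623 and 0.132 times COL5A2. COL27A1, a fibrillar collagen of cartilage, had 2.60, 3.13 and 3.32 CPM per kb. It lay 0.89 ± 0.09 below the median gene (limma, log2 distance -0.89, adjusted p = 2.6e-05), but was called above it on CPM not divided by exon length (log2 distance 0.54).

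Type IV collagens form the network of basement membranes and are encoded by 3 pairs of genes that start next to each other and are read in opposite directions. The chains found in nearly all basement membranes had almost no reads: COL4A1 had 0, 0 and 0 counts and COL4A2 had 2, 3 and 0. The chains of kidney, lung and other special basement membranes were detected, with 0.119, 0.138 and 0.155 CPM per kb for COL4A3, 0.432, 0.548 and 0.385 for COL4A4, 0.746, 0.738 and 0.686 for COL4A5 and 0.616, 0.429 and 0.382 for COL4A6. All 4 lay below the median gene (limma, adjusted p at most 2.0e-07). Taking 3 counts per library as the floor of COL4A1, COL4A5 was at least 91.1, 155 and 80.7 times higher per kb in replicates 1, 2 and 3. These bounds rest on union exon lengths of 11.9 kb for COL4A5 and 14.7 kb for COL4A1. In plain counts COL4A5 had 220, 374 and 195 against the floor of 3, which gives smaller bounds. Within the detected pairs, COL4A3 was 0.276, 0.253 and 0.404 times COL4A4 and COL4A6 was 0.825, 0.581 and 0.557 times COL4A5, whose interval in replicate 1 includes 1. By the first listed RefSeq start site of each gene, COL4A1 and COL4A2 are separated by 126 bases, COL4A4 and COL4A3 by 418 and COL4A6 and COL4A5 by 379. Between the whole gene spans of GENCODE 29 the gaps are -1421 (an overlap), 112 and 347 bases, so these distances depend on the transcripts used. The stretch between COL4A1 and COL4A2 (chr13:110307158-110307283, plus strand) is shown because its genes had at most 3 counts in any library, with the 250 bases before COL4A3 (chr2:227164374-227164623, plus strand) and before COL4A5 (chrX:108439588-108439837, plus strand) from the detected pairs.
COL4A1-COL4A2: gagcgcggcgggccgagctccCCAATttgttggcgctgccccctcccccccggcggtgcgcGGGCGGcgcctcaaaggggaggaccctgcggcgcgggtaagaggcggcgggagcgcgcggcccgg
COL4A3: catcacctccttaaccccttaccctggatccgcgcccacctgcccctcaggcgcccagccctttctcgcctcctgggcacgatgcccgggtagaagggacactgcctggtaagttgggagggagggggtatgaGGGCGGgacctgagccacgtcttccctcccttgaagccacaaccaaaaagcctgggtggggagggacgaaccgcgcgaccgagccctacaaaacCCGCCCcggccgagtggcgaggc
COL4A5: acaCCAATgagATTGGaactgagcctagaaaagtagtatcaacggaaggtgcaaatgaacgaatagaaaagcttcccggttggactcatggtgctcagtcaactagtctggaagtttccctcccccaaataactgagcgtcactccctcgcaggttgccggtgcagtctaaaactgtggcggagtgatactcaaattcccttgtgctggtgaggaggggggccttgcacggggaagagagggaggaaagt

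The COL4A1 and COL4A2 stretch held 1 GC box and 1 CCAAT box, the COL4A3 window 2 GC boxes and no CCAAT box, and the COL4A5 window no GC box and 2 CCAAT boxes. In the 126 bases before the start site, 34.6% of all promoters held a GC box and 21.1% a CCAAT box. CG dinucleotides numbered 20 in the 126 bases between COL4A1 and COL4A2, 17 in the COL4A3 window of 250 bases and 8 in the COL4A5 window of 250 bases. In windows of 250 bases the median was 11 for all promoters, 12 for detected members and 16 for members that were not detected, all untested. The letters shown describe the reference sequence, and methylation was not measured.

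Of the other network collagens, COL8A1 and COL8A2, chains of the endothelial type VIII network, had 0.186 to 0.246 and 0.214 to 0.676 CPM per kb, and the growth plate collagen COL10A1 had 11, 11 and 8 counts. None of the 5 type VI genes, whose products form beaded filaments, was detected, and they held 0 to 25 counts per library. COL7A1, the anchoring fibril collagen, was detected at 0.0691, 0.131 and 0.0754 CPM per kb. Among the fibril-associated collagens COL16A1 (2.60, 2.65 and 2.80 CPM per kb), COL14A1 (2.21, 1.92 and 1.77) and COL9A2 (1.60, 1.70 and 1.52) were highest, and COL9A1 was the lowest detected at 0.0865 to 0.145. COL9A2 exceeded COL9A3 by 7.42, 10.3 and 16.1 times, although their products assemble into 1 type IX molecule. COL12A1, COL20A1 and COL22A1 were not detected.

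The transmembrane collagen COL25A1, whose shed part binds amyloid fibrils in brain, had 2.98, 3.38 and 4.05 CPM per kb. With the union of exons as length it was the second highest collagen. It lay 0.69 ± 0.10 (SE) below the median gene (limma, log2 distance -0.69, adjusted p = 2.7e-04), and was not distinguished from it on CPM not divided by exon length (0.059, adjusted p = 0.603). The other transmembrane collagens, COL13A1, COL17A1 and COL23A1, were not detected, and neither were the basement membrane multiplexins COL15A1 and COL18A1. COL28A1 had 0.803, 0.887 and 0.700 CPM per kb.

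**Figure D3:**
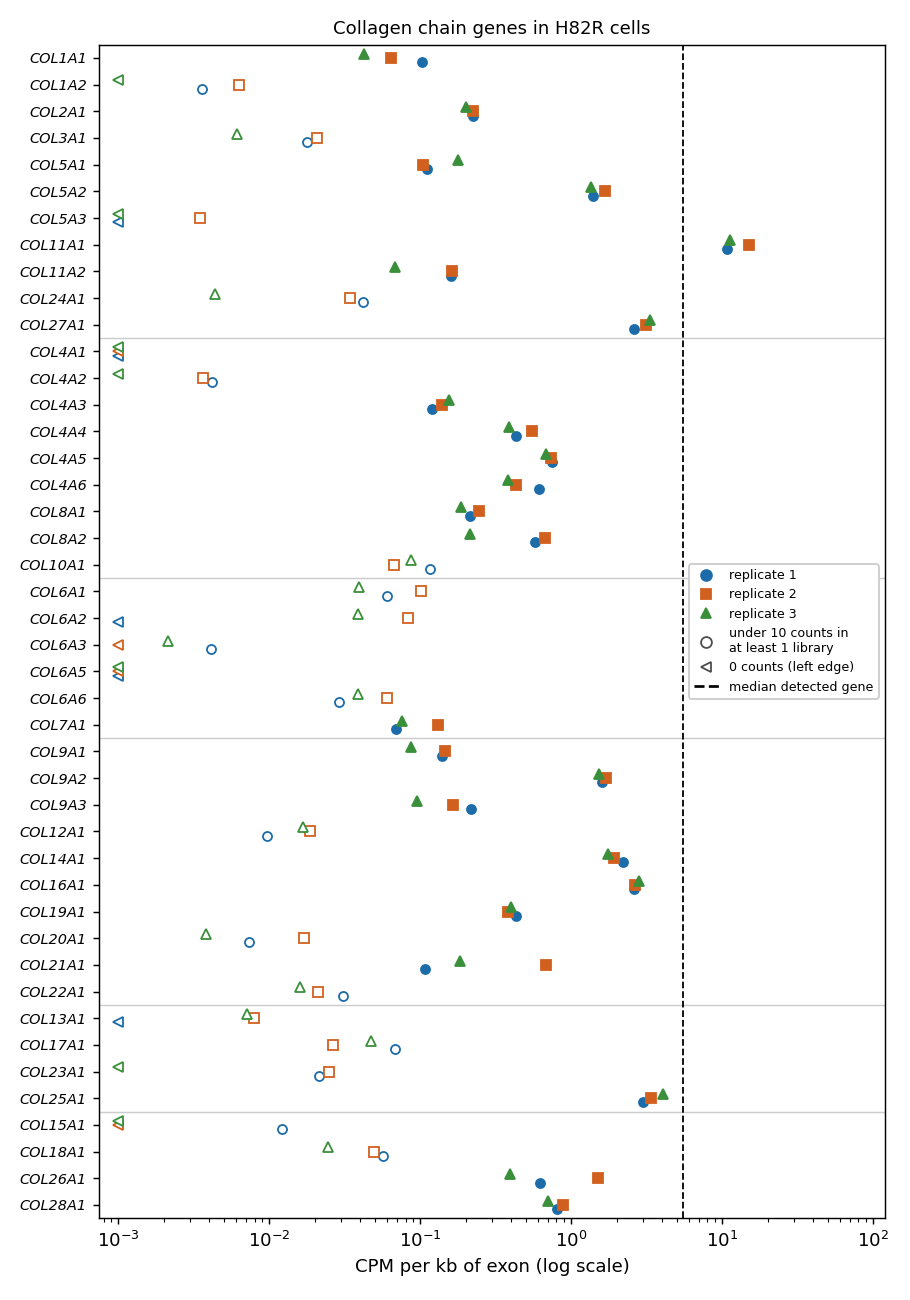
Level of each of the 44 collagen chain genes in CPM per kb of exon on a log scale, 1 marker for each library, with grey lines between role classes and a dashed line at the median detected gene. Open markers have fewer than 10 counts in at least 1 library, and triangles at the left edge are counts of 0. COL11A1 is the 1 gene right of the dashed line, COL4A1 and COL6A5 are at 0 in all 3 libraries, and the COL21A1 and COL26A1 markers of replicate 2 stand apart.

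Because these proteins work as assemblies, the chains were also read together. Of 48 known heterotrimers and heterodimers, 31 had every chain detected: 13 of 14 laminins, 12 of 24 integrins and 6 of 10 collagens. The count of 31 depends on the filter. It was 25 with at least 1 CPM in every library and 46 with at least 1 count in any library. With the lowest chain as the measure, alpha6 beta1 stood first at 15.5 CPM per kb (ITGB1), followed by laminin-111 at 9.09 (LAMA1), alphaV beta1 at 8.12 (ITGAV), laminin-511 at 7.68 (LAMA5), laminin-121 and laminin-521 at 6.32 (LAMB2), alpha4 beta1 at 6.03 (ITGA4) and alpha5 beta1 at 4.78 (ITGA5). These are means over the 3 libraries with the union of exons as length, and their order depends on that length. With the longest transcript, ITGA4 lay further above the median gene (log2 distance 0.57) than LAMA5 (0.32) and ITGAV (0.31). By the lowest chain on the union of exons, each of the 10 collagen heterotrimers counted stayed at or under 0.476 CPM per kb. That value is the mean level of COL4A6, for the alpha5 alpha6 type IV network. Collagen genes outside these heterotrimers, among them COL25A1 (3.47) and COL27A1 (3.02), were not counted here. Among the chains missing from the count were COL1A2 for type I, COL4A1 and COL4A2 for the common type IV network, all 3 chains counted for type VI, and ITGB2, ITGB3, ITGB6 or ITGB7 for 9 of the 12 integrins without full detection. The remaining 3 of these 12 lacked ITGA2, ITGA10 or ITGA11. An mRNA of each chain does not show that the protein assembles.

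**Figure D4:**
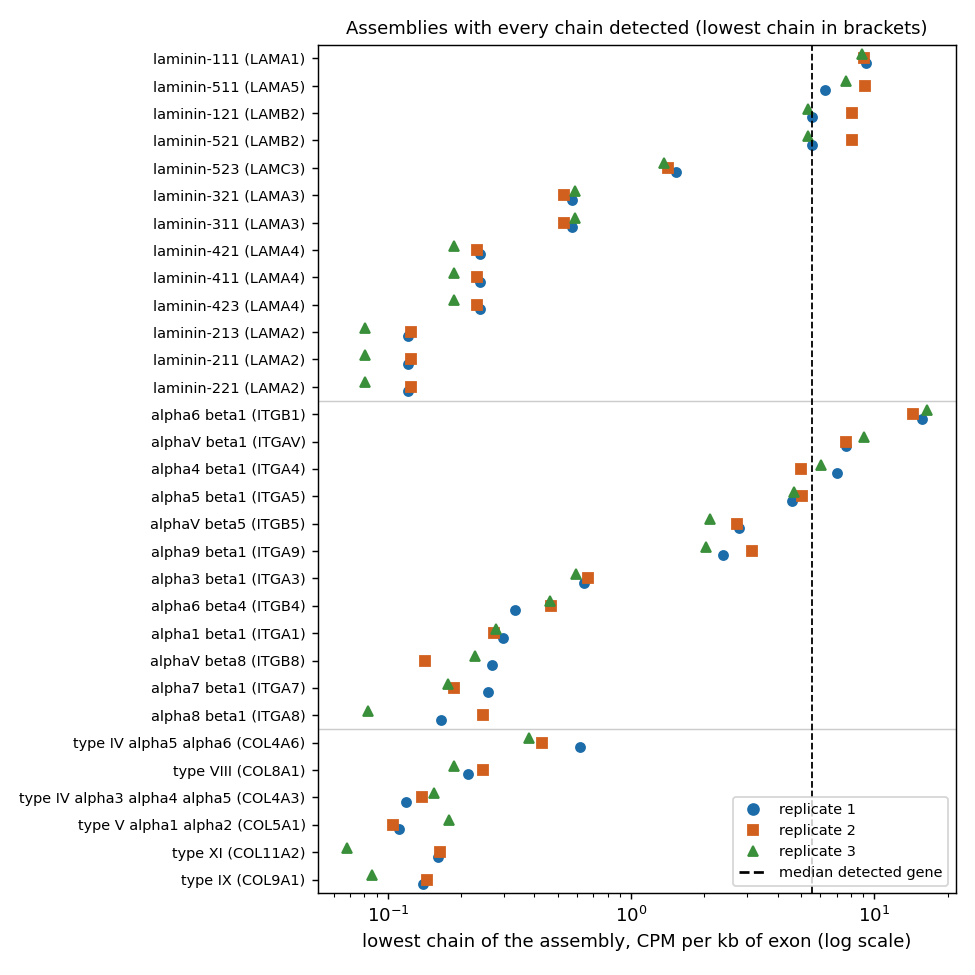
Level of the lowest chain (named in brackets) of each of the 31 laminin, integrin and collagen assemblies with every chain detected, in CPM per kb of exon on a log scale, 1 marker for each library, with a dashed line at the median detected gene. Laminin-111, laminin-511, alpha6 beta1 and alphaV beta1 lie right of the line in every library, and the 6 collagen assemblies lie left of it.

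Of 20 pairs of genes compared within each library, 15 had both genes detected. With the union of exons as length, the same gene was higher in every library beyond the 95% exact binomial interval in 12 of these. In the remaining 3 (LAMA1 to LAMA5, ITGA5 to ITGA4 and COL4A6 to COL4A5) it was not. This result depends on the length used. With the longest transcript as length, the geometric mean ratios of these 3 lay further from 1, at 1.46, 0.643 and 0.484 in place of 1.20, 0.799 and 0.644. The intervals cover counting error only.

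Replicate libraries differed by more than counting error in 27 of the 50 detected members (chi-square homogeneity test, adjusted p threshold 0.05), against 68.7% of all detected genes. The median SD of log2 CPM was 0.22 for the members and 0.17 for all detected genes. Counting error is larger at low counts, and the members lay lower (median log2 distance -3.03). Neither comparison is matched for level, and the part of level in them was not tested. In 5 of the 27 the highest CPM was over 2 times the lowest, against 9.32% of all genes past the test, and the same 5 of 50 detected members stand against 6.41% of all detected genes. COL21A1, a fibril-associated collagen, had 19, 206 and 31 counts (0.108, 0.681 and 0.183 CPM per kb), a 6.30-fold range with replicate 2 highest (adjusted p = 1.7e-25), and 6 of the 14612 detected genes had a larger SD. COL26A1, a secreted collagen of reproductive tissue, had 49, 202 and 30 counts, a 3.78-fold range with replicate 2 highest (adjusted p = 6.0e-16). COL8A2 had 67, 135 and 24 counts, a 3.15-fold range with replicate 3 lowest (adjusted p = 1.1e-06). ITGA8 (2.95-fold) and COL11A2 (2.40-fold) were the other members in this set, both lowest in replicate 3.

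Among the 27 members past the test, 15 were highest in replicate 2, against 37.5% of all genes past it. Among all 50 detected members 24 were, against 36.4% of all detected genes. Replicate 2 is also the deepest library. Without it, 15 of 50 members were past the test between the remaining libraries, against 39.0% of all genes detected in those. The part of depth, or of anything else that differs in replicate 2, in these values was not tested. LAMA1 was among the steadiest of the highly expressed members, with a range of 1.04-fold and no spread beyond counting error (adjusted p = 0.262), while LAMB1, LAMC1, ITGA6, ITGB1 and COL11A1 differed between libraries beyond counting error by 1.10- to 1.40-fold.

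**Figure D5:**
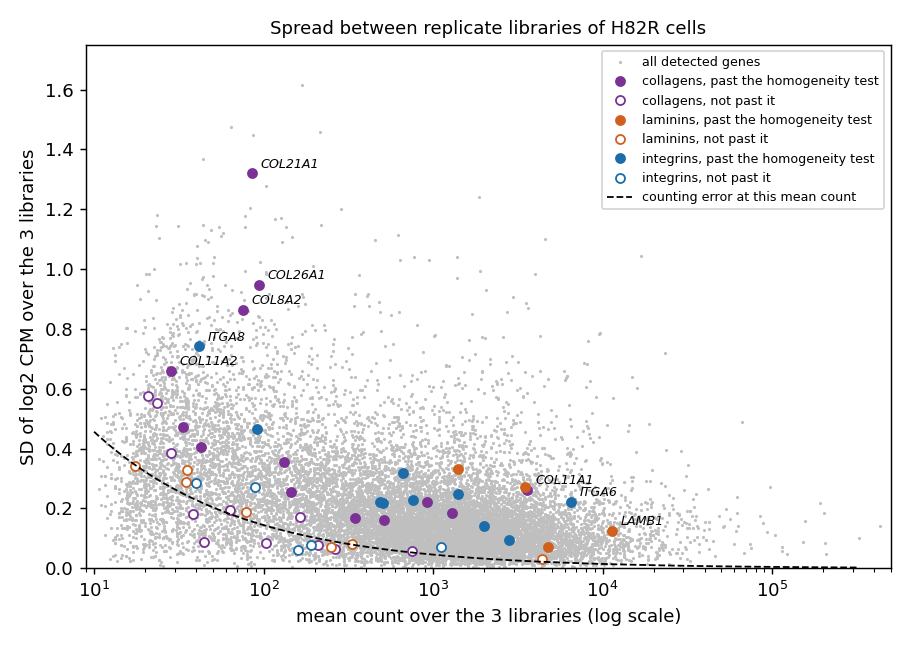
SD of log2 CPM over the 3 libraries against the mean count on a log scale. Grey points are all 14612 detected genes, coloured points are detected collagens, laminins and integrins, filled where they passed the homogeneity test, and the dashed line is the SD that counting error gives at each mean count. COL21A1 and COL26A1 stand highest among the members.

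Beside the counts of the partner lists that follow stand 53.0% of all genes detected, and 45.3% above and 45.1% below the median gene among all genes tested. The 53.0% again includes names that matched no annotated gene, while every gene of the partner lists matched. Of 28 genes for collagen folding, modification and processing 27 were detected, 13 above the median gene and 12 below, with a median log2 distance of 0.18, against 0.00 for all detected genes. P4HB, which encodes a subunit of prolyl hydroxylase and is also protein disulfide isomerase, had 100.1 ± 15.4 CPM per kb (SD, n = 3), the prolyl isomerase gene FKBP10 30.9 ± 1.95, and the collagen galactosyltransferase gene COLGALT1, listed as GLT25D1, 21.2 ± 1.94. P4HA3 was the lowest detected at 0.131 ± 0.0260. The collagen chaperone gene SERPINH1 had 4.92 ± 0.868 and could not be separated from the median gene (limma, adjusted p = 0.153).

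Of 27 integrin activators and focal adhesion genes 25 were detected, 14 above the median gene and 11 below (7 below on CPM not divided by length), with a median log2 distance of 0.65. FLNA (56.7 ± 9.22 CPM per kb), ACTN4 (42.3 ± 1.97) and TLN1 (29.8 ± 3.43), which encode the actin crosslinkers filamin A and actinin 4 and the integrin activator talin 1, were highest. PTK2, the gene of focal adhesion kinase, had 24.8 ± 0.890 and the integrin-linked pseudokinase gene ILK 0.414 ± 0.111, both named here after their values were seen. TNS3 was the lowest detected at 0.0450 ± 0.0117.

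Of 17 basement membrane and matrix partners, which join laminins and collagens outside the cell, 14 were detected, 2 above the median gene and 12 below, with a median log2 distance of -3.61. SPARC, a collagen-binding protein, had 16.3 ± 1.24 CPM per kb, FRAS1, an embryonic basement membrane protein, 8.82 ± 1.12, and VTN, which encodes vitronectin, 1.69 ± 0.385. The laminin-binding linkers were low: NID2 was the lowest detected by its mean, 0.0681 ± 0.00459, close to THBS1 at 0.0683, and NID1 had 3, 8 and 3 counts. AGRN (agrin) had 0.514 ± 0.127, HSPG2 (perlecan) 0.431 ± 0.178 and FN1 (fibronectin) 1.06 ± 0.0936. PXDN, the peroxidase that crosslinks type IV collagen, had 1, 0 and 0 counts. THBS1, AGRN, HSPG2, FN1, PXDN and NID1 were named after their values were seen.

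Of 12 other matrix receptors 11 were detected, 4 above the median gene and 6 below (median log2 distance -1.79). The syndecan genes SDC2 (20.4 ± 1.32 CPM per kb) and SDC4 (14.8 ± 2.74) and the dystroglycan gene DAG1 (8.19 ± 0.738), a laminin receptor, were highest, and the hyaluronan receptor gene CD44 (0.129 ± 0.0179) was the lowest detected. Of 16 matrix proteases and inhibitors 14 were detected, 2 above and 9 below (median log2 distance -1.35). The count above was 1 with the longest transcript as length or with at least 1 CPM in every library, and 5 with at least 1 count in any library. MMP9, a protease of denatured collagen and type IV collagen, had 11.1 ± 2.67 CPM per kb, MMP24 7.22 ± 0.261 and ADAM10 6.35 ± 1.16, and MMP11 was the lowest detected at 0.205 ± 0.0607. Over the 5 lists together, 91 of 100 genes were detected, 35 above and 50 below the median gene.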

How the data were processed

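Total RNA was isolated with TRIzol and sequenced from Illumina libraries (labels' protocols). The authors deposited raw read counts per gene symbol for the 3 libraries, with no normalization. Per the submitters' processing notes, STAR 2.6.1b and hg38 were used, in roles left unsaid. How reads were counted, against which annotation and strand, and with which filter is not given in the sources used here. Of 27587 names, 13 had become dates and were left out (0.0665%, 0.0707% and 0.0736% of counts), leaving 27574. CPM used TMM effective library sizes (edgeR 4.0.16). Exon lengths, as the union of exons, came from GENCODE 29 on GRCh38, to which 19590 names matched directly and 470 through an older RefSeq symbol; 13517 of 14612 detected genes had one, as did all 82 members.

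With 1 group there is no contrast for edgeR's or DESeq2's tests. Levels were compared by limma-trend (version 3.58.1 of limma, R 4.3.3): log2 CPM (prior count 2) per kb of exon minus that library's median detected gene, two-sided, with Benjamini-Hochberg adjustment over all 13517 genes. A chi-square homogeneity test over all 14612 genes was used for spread. P-values reflect only how these samples vary, and that variation may be technical. Both tests were tested on simulated data. Intervals (Clopper-Pearson, 95%) and floors (3 counts) cover counting error only. Promoter sequences are from RefSeq (GRCh38.p14), 250 bases before each start site. The sequences and start site distances shown use the first listed start site of each gene, and counts of windows use all. The values of 1 member are not reported here. Any other member may be named; of each partner list the 3 highest and the lowest detected gene are named, others as stated. Members and lists were chosen with earlier results of these data known. Alternatives were each library left out, 2 other detection filters, size factors from DESeq2 1.42.0, limma-voom, protein-coding genes, a prior count of 0.5, library totals, no length or longest-transcript length, and a 0.01 threshold for spread.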

Additional observations from a re-analysis of the deposited data

How the results depend on the processing

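No paired analysis was possible because all libraries form 1 group. DESeq2 size factors, limma-voom, a prior count of 0.5 and the median over protein-coding genes changed no call of a level, and 39 of the 50 members tested kept their call under every alternative that gave them a value; 10 members had none with at least 1 CPM in every library. Counting genes with at least 1 count in any library gave 79 members in place of 50 and 61 members below the median gene in place of 40; with the same filter, which lowers the median gene as more low genes enter, ITGA5 (0.71) and ITGA2B (0.56) were called above it, and COL27A1 (0.039) and COL25A1 (0.24) had positive distances but were not distinguished from it. Without division by exon length, COL27A1 (0.54) and ITGA5 (0.32) were called above the median gene, while COL25A1 (0.059) and MMP9 (-0.19) changed sign and were not distinguished from it, as was MMP24 (-0.077) with the longest transcript as length. ITGA4, not distinguished in all libraries, was called above the median gene without replicate 2 (0.23, adjusted p = 0.0269), without division by length (0.71) and with the longest transcript (0.57), and LAMB2 without division by length (0.56); both were also called with at least 1 count in any library, where COL16A1, ITGA9, ITGAE and ITGB5 lost their call. With at least 1 CPM in every library LAMA5 (0.25) and MMP24 (0.18) lost theirs, as did MMP24 without division by length. Leaving out 1 library gave 50 to 56 detected members, 31 to 33 assemblies, 8 to 9 members above and 38 to 44 below the median gene, 34 to 36 partner genes above and 48 to 50 below, 12 to 14 pairs in 1 order and 15 to 23 members with spread beyond counting error, the lowest without replicate 2. With 2 libraries the moderated test rests on 1 residual degree of freedom per gene plus the trend over genes. Of the 15 pair ratios, 7 moved by more than their SD between libraries with the longest transcript as length. On plain counts 5 did, and with a library left out all stayed within it. No ratio changed its side of 1. With the longest transcript the geometric mean of LAMB1 to LAMC1 was 3.20 in place of 2.41, and that of ITGA6 to ITGB1 was 1.49 in place of 2.03. Depth limits members under about 10 counts: their order and presence cannot be read.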
